A study of Homo sapiens with 6 samples.

Results

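The 5 genes described here, MSH6, MSH3, PMS2, PMS1 and MLH3, encode proteins of DNA mismatch repair, and were taken by symbol from 28278 symbols in the count tables. All 5 were in the tables, and all 5 passed the filter on low counts that left 14002 genes for testing. They were measured by RNA-seq in HCT116, an established human line from a colon carcinoma that is known to be mismatch repair deficient. One group of 3 libraries came from cells that stably carried a scrambled shRNA (shControl, labelled WT), and the other group of 3 from cells that stably carried an shRNA against TRIM21 (shTRIM21, labelled TRIM21 knockdown). Both shRNAs were delivered by lentivirus, puromycin at 5 µg/ml was added 36 h later and kept for 2 to 3 weeks, and all cells are labelled day 21. The labels name 1 shRNA against TRIM21 and do not say whether the cells were pools or clones, and they call the replicates biological without saying whether these were separate cultures, so p-values measure the spread between these libraries, which may be technical. Total RNA was depleted of ribosomal RNA before sequencing. In such bulk samples, fewer cells that express a gene and less RNA per cell cannot be told apart.

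Mismatch repair removes base mispairs and small loops left behind by DNA polymerases, and its loss makes short repeats, the microsatellites, unstable. MutS heterodimers recognise the mispair: the one with MSH6 binds base mispairs and the smallest loops, and the one with MSH3 binds larger loops. MutL heterodimers act next. The one with PMS2 is the main nicking enzyme of the pathway in human cells, the one with MLH3 also nicks DNA and is best known for meiotic crossing over, and the one with PMS1 has no known nuclease activity. The nicked strand is then cut back by the exonuclease EXO1 and filled in by polymerase delta with its clamp PCNA. A per-gene read count shows transcript level only, not which alleles are intact, and no protein was measured.

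MSH3 (ENSG00000113318) spans 80654648 to 80876460 of chromosome 5, plus strand, in GRCh38 (GENCODE 29). PMS1 (ENSG00000064933) spans 189784085 to 189877629 of chromosome 2, plus strand, with a RefSeq start site 111 bases from that of ORMDL1 on the opposite strand. PMS2 (ENSG00000122512) spans 5973239 to 6009125 of chromosome 7, minus strand, and has a RefSeq start site 166 bases from that of AIMP2 on the opposite strand. MSH6 (ENSG00000116062) spans 47695530 to 47810101 of chromosome 2, plus strand, and MLH3 (ENSG00000119684) spans 75013764 to 75051532 of chromosome 14, minus strand. The most upstream RefSeq start of MSH6, at 47783145, lies inside its GENCODE span and not at the start of that span.

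The 250 bases before the most upstream RefSeq start of each gene (GRCh38.p14) were searched on both strands for the CCAAT box, spelled CCAAT. The 3 members that hold it are shown, and MSH6 differs from PMS1 and PMS2 in the number of matches. Each stretch below is 30 bases of RefSeq sequence, 5′ to 3′ on the gene's own strand, with the matches in capitals (ATTGG is a match on the other strand).
MSH6 (chr2:47783086-47783115, plus strand): aggcgcctgttgATTGGccactggggcccg
PMS1 (chr2:189784394-189784423, plus strand): gcggATTGGctgcgagcagcgCCAATctca
PMS2, first CCAAT box (chr7:6009209-6009238, minus strand): cggtgtgctctgATTGGcccaggctctttg
PMS2, second CCAAT box (chr7:6009164-6009193, minus strand): cctttgacagagCCAATaggcgaaaaggag

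PMS1 and PMS2 each held 2 CCAAT boxes, of opposite orientation, and MSH6 held 1. At least 1 CCAAT box was found in 33.0% of 27305 genes in the same window, and at least 2 in 2739 of them. MSH3 and MLH3 held none. These matches describe the letters only.

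Library totals ran from 22656160 to 27123657 counts, and genes of ribosomal RNA took 6.69% to 15.2% of them. The share was lowest in replicate 3 of each group. On the leading principal component (33.0% of variance) the groups lay apart. On the next (23.4%), replicate 3 of each group lay apart, at -31.8 in shControl and -14.7 in shTRIM21. The other libraries lay at 5.49 to 22.9 on it. Values without shControl replicate 3, the library farthest out, are given beside the genes whose call it changes. TRIM21 fell to 0.603 of its control level (log2 fold change -0.73, SE 0.17; adjusted p = 0.0124, edgeR's quasi-likelihood test, Benjamini-Hochberg over all tested genes). Leaving out shTRIM21 replicate 3 ended that call (-0.62, adjusted p = 0.0734), as did leaving out both replicates 3 (-0.45, adjusted p = 0.114). Colon epithelial markers summed to 185 to 198 CPM in shControl and 172 to 174 CPM in shTRIM21 (CPM: the usual counts-per-library-size unit, with TMM scaling of the library sizes). Leukocyte, fibroblast, endothelial and hepatocyte lists each summed to at most 0.249 CPM.

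PMS1 was the 1 member that passed the test, and it rose. MSH6, PMS2 and MSH3 had values below 0 on the log2 scale and MLH3 a value just above it, and none of these 4 passed. Over all 14002 genes 4.43% rose and 4.66% fell, 9.08% in all, so 1 of 5 members is near the background. The median log2 fold change of the 5 members was -0.14, beside 0.01 over all genes tested. At an unadjusted p under 0.05 there were 2 members, PMS1 and MSH6, where 22.8% of all tested genes were.

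**Figure D1:**
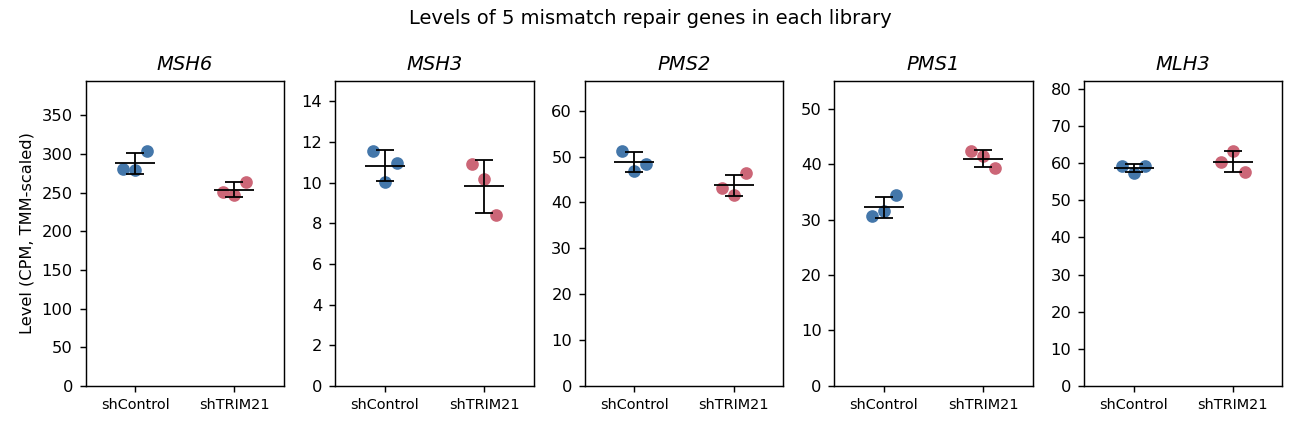
Each panel plots 1 gene's level in CPM on a linear axis from 0, with a point for each of 3 libraries per group and a bar for the mean ± SD. The groups do not overlap for MSH6, PMS2 and PMS1, with PMS1 the gene that is higher in shTRIM21, and they overlap for MSH3 and MLH3.

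Set side by side per length of the principal annotated transcript, the order was MSH6, PMS2, PMS1, MLH3, MSH3. MSH6 averaged 36.2 ± 2.85 CPM per kb (SD, n = 6), PMS2 16.2 ± 1.20, PMS1 11.3 ± 1.57, MLH3 7.54 ± 0.269 and MSH3 2.52 ± 0.270. No 2 neighbours in that order overlapped in any library: the lowest MSH6 value was 33.0 and the highest PMS2 value 17.9, the lowest PMS2 value 14.6 and the highest PMS1 value 13.1, the lowest PMS1 value 9.50 and the highest MLH3 value 8.01, and the lowest MLH3 value 7.26 and the highest MSH3 value 2.82. MSH6 stood above 86.3% of 13191 tested genes with a known length, and MSH3 above 25.1%. The MSH6 transcript used is 7.48 kb long, and a shorter one would place MSH6 higher still. The order depends on the transcript chosen for each gene, and the PMS2 level depends on how reads were shared with its copies.

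Among the mispair recognition subunits, MSH6 stood at 281, 279 and 303 CPM in shControl replicates 1 to 3 and at 251, 247 and 264 CPM in shTRIM21. The groups did not overlap, with shTRIM21 the lower, and replicate 3 was the highest of each group. The means were 288 ± 13.5 and 254 ± 9.23 CPM (n = 3 per group, SD), a log2 fold change of -0.18 (95% confidence interval -0.31 to -0.05) that did not pass edgeR's test (adjusted p = 0.0760). The difference passed in DESeq2 (adjusted p = 0.0283) and with the replicate number as a block (adjusted p = 0.0489). Corrected for GC content and transcript length, the value was -0.10 (adjusted p = 0.178), and without shControl replicate 3 it was -0.14 (adjusted p = 0.0982). The adjusted p ran from 0.0283 to 0.249 over the 16 alternatives tried for MSH6.

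MSH6 shares 1785 bases of annotated exon with FBXO11, a ubiquitin ligase subunit gene on the opposite strand, 16.2% of the exon bases annotated for MSH6. The strand setting of the counts is not given in the sources used here, so reads from that overlap could not be assigned to either gene. FBXO11 went from 132 ± 9.01 to 116 ± 2.45 CPM (n = 3 per group, SD), with a log2 fold change of -0.20 and an adjusted p of 0.0817. With both genes summed into 1, the log2 fold change was -0.19 and the adjusted p 0.0633. Scatter among the MSH6 replicates, a coefficient of variation of 4.67% in shControl and 3.63% in shTRIM21, was above the 1.16% and 1.27% that counting alone gives at its counts of 5491 to 8523.

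MSH3, the member with the lowest level per kb, stood at 11.5, 10.01 and 10.97 CPM in shControl and at 10.9, 10.2 and 8.38 CPM in shTRIM21. The groups overlapped, and shTRIM21 replicate 3 lay below all other libraries. From raw counts of 217 to 308, the log2 fold change was -0.14 (95% confidence interval -0.48 to 0.19; adjusted p = 0.649), an interval that runs from 0.717 to 1.14 of the control level. The value was -0.04 without that library, -0.02 when both replicates 3 were left out and -0.23 without shTRIM21 replicate 1, and it passed in none of the 15 alternatives.

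**Figure D2:**
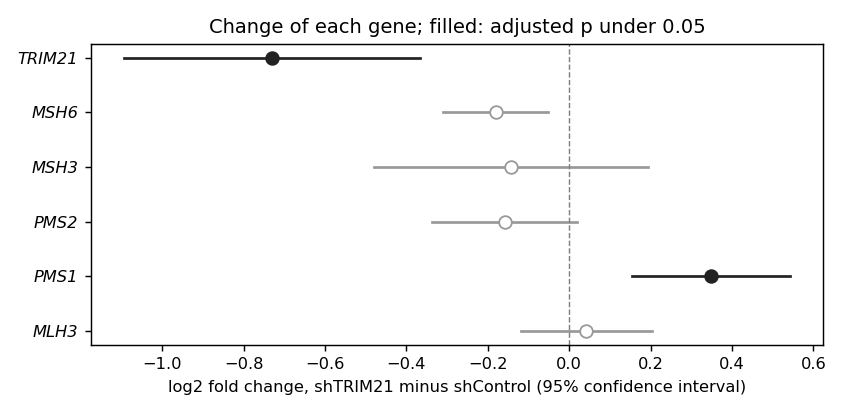
The x axis is the log2 fold change, shTRIM21 minus shControl, with its 95% confidence interval, for the 5 members and TRIM21 from edgeR's fit of all genes. TRIM21 (-0.73) and PMS1 (0.35) are the filled points, past an adjusted p of 0.05, and the intervals of MSH3, PMS2 and MLH3 cross 0.

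Among the MutL subunits, PMS1 stood at 30.6, 31.6 and 34.4 CPM in shControl and at 42.3, 41.4 and 39.3 CPM in shTRIM21. Every shTRIM21 library lay above every shControl library, with replicate 3 of each group, the libraries with the lowest share of ribosomal RNA, the nearest to the other group. The part of that share in the result was not tested. From a mean of 32.2 ± 1.93 CPM, PMS1 rose to 41.0 ± 1.52 CPM (n = 3 per group, SD), a log2 fold change of 0.35 (SE 0.09), which is 1.27-fold with a 95% confidence interval of 1.11 to 1.46. In edgeR's test the adjusted p was 0.0230.

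PMS1 kept a positive value in all 15 alternatives, from 0.31 to 0.44, and the alternatives that kept all 6 libraries kept the call, with an adjusted p from 0.00218 to 0.0445. With fewer libraries it was called only without shControl replicate 3 (0.40, adjusted p = 0.00698) and with both replicates 3 left out (0.44, adjusted p = 0.00885). The adjusted p was 0.108 and 0.0826 without shControl replicates 1 and 2, and 0.0795, 0.0884 and 0.0553 without shTRIM21 replicates 1, 2 and 3.

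ORMDL1, a regulator of sphingolipid synthesis that starts 111 bases from PMS1 on the other strand, went from 76.8 ± 11.8 to 84.3 ± 6.496 CPM (n = 3 per group, SD). Its groups overlapped, and its log2 fold change of 0.13 (95% confidence interval -0.06 to 0.33) did not pass, with an adjusted p of 0.432. Without shControl replicate 3 the ORMDL1 value was 0.27 and passed (adjusted p = 0.0210). The annotated exons of the genes share 103 bases, 1.9% of those of PMS1. OSGEPL1, next in line on the side of ORMDL1, had a log2 fold change of -0.12 and an adjusted p of 0.712.

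PMS2, the subunit of the main nicking enzyme, stood at 51.1, 46.9 and 48.3 CPM in shControl and at 43.1, 41.7 and 46.3 CPM in shTRIM21. The groups did not overlap, though shTRIM21 replicate 3 and shControl replicate 2 lay close together. The means were 48.8 ± 2.13 and 43.7 ± 2.37 CPM (n = 3 per group, SD). The log2 fold change of -0.16 (95% confidence interval -0.34 to 0.02) did not pass, with an adjusted p of 0.282. Of the 5 members, 2 lay lower without overlap (MSH6 and PMS2) and 1 higher (PMS1), where 13.9% and 14.1% of all tested genes did.

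PMS2 has many near-identical partial copies on chromosome 7, and 8 of them, PMS2CL and 7 PMS2P pseudogenes, are listed in the tables. Together they held 1290, 1333 and 1167 counts in shControl and 1264, 1207 and 1375 in shTRIM21, beside 1250, 1149 and 1357 for PMS2 itself and then 1099, 928 and 1199. The copies thus made up 46.2% to 56.5% of the counts of PMS2 and copies, and how reads that match several copies were counted is not given in the sources used here. PMS2CL went from 13.6 ± 1.85 to 11.8 ± 0.752 CPM (log2 fold change -0.20, adjusted p = 0.466). PMS2P3 had the smallest adjusted p of the copies, 0.241, at a log2 fold change of 0.55. With PMS2 and all copies summed into 1 gene, the log2 fold change was -0.03 and the adjusted p 0.831, nearer to 0 than for PMS2 alone. By edgeR 0 of the 8 copies passed, 0 had an unadjusted p under 0.05, and DESeq2 and limma-voom called 0. Over all tested genes the shares were 9.08%, 22.8%, 11.4% and 8.56% in that order. Beside these, 0 of 8 is not read as a trait of the copies.

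**Figure D3:**
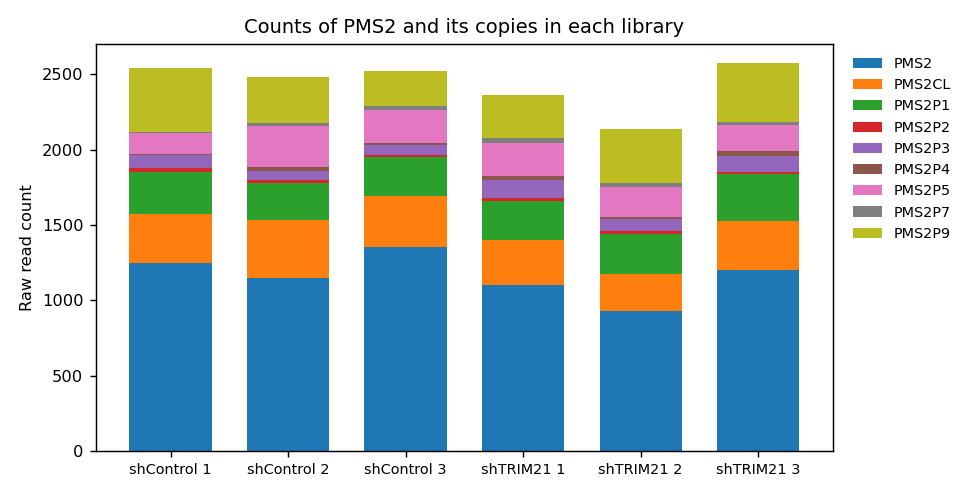
Stacked bars from 0 give the raw counts of PMS2 (bottom) and its 8 listed copies in each of the 6 libraries. PMS2 itself runs from 1149 to 1357 in shControl and from 928 to 1199 in shTRIM21, ranges that overlap on this unscaled axis, and the sum of the copies runs from 1167 to 1333 in shControl and 1207 to 1375 in shTRIM21.

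AIMP2, a scaffold protein of the aminoacyl-tRNA synthetase complex that starts beside PMS2, went from 25.1 ± 2.88 to 27.4 ± 1.80 CPM (n = 3 per group, SD). The log2 fold change was 0.13 and the adjusted p 0.553. EIF2AK1, the heme-regulated kinase next to AIMP2, had a log2 fold change of -0.09 (adjusted p = 0.409).

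MLH3 was the steadiest member, at 59.4, 57.4 and 59.3 CPM in shControl and 60.4, 63.2 and 57.7 CPM in shTRIM21. The groups overlapped, and both the highest and the second lowest library were in shTRIM21. The log2 fold change was 0.04 (95% confidence interval -0.12 to 0.20; adjusted p = 0.799), so that the interval runs from 0.921 to 1.151 of the control level. Corrected for GC content and transcript length it was 0.12 (adjusted p = 0.244). The coefficient of variation among shControl replicates, 1.94%, was below the 2.58% that counting alone gives, and that among shTRIM21 replicates was 4.58%. Of its neighbours ACYP1, an acylphosphatase, had a log2 fold change of -0.24 (adjusted p = 0.484) and EIF2B2, a translation initiation factor subunit, one of -0.11 (adjusted p = 0.519).

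Ratios of raw counts within a library do not depend on library size or its scaling. The MutS subunits were set against each other in this way, and PMS2 was set against each of the other MutL subunits. The ratio of PMS2 to PMS1 was 0.74, 0.57 and 0.49 on the log2 scale in shControl and 0.03, 0.01 and 0.24 in shTRIM21. All 3 shTRIM21 libraries lay below all 3 shControl libraries, so that PMS2 had 1.52 counts for each of PMS1 in shControl and 1.07 in shTRIM21, a log2 difference of -0.51. The ratio of PMS2 to MLH3 went from -0.27 ± 0.04 to -0.47 ± 0.14 (n = 3 per group, SD), also without overlap. Both had p = 0.1 in an exact two-sided permutation test, the smallest that 3 against 3 allows, and an adjusted p of 0.15 over the 3 ratios. These ratios share PMS2 and are not independent. They follow from the single-gene changes given above, and the PMS2 count depends on how reads were shared with its copies. These count ratios are not per length, and per kb PMS2 stood above MLH3 (16.2 against 7.54 CPM per kb).

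The ratio of MSH6 to MSH3 was 4.61, 4.80 and 4.79 on the log2 scale in shControl and 4.52, 4.60 and 4.98 in shTRIM21. The groups overlapped, with a log2 difference of -0.03 (exact two-sided permutation p = 0.8, adjusted p = 0.8), and its sign changed with the library left out. As counts, MSH6 exceeded MSH3 by 26.6-fold in shControl and 26.0-fold in shTRIM21, a count ratio that is not per length.

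**Figure D4:**
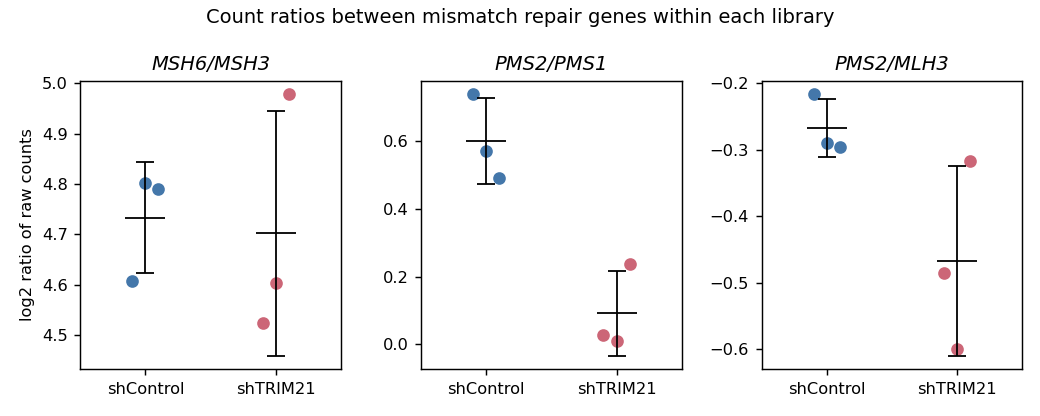
Each panel plots the log2 ratio of raw counts of a pair of members in each library, with the mean ± SD (n = 3 per group). The ratios of PMS2 to PMS1 and of PMS2 to MLH3 are lower in all 3 shTRIM21 libraries, and the ratios of MSH6 to MSH3 overlap between the groups.

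The genes that act after the mispair is bound gave no call. Of 16 genes of strand excision and resynthesis 0 rose and 0 fell by edgeR's quasi-likelihood test. Their median log2 fold change was 0.02, beside 0.01 over all genes tested. Of all tested genes 4.43% rose and 4.66% fell by edgeR's test, so 0 of 16 is near the background. At an unadjusted p under 0.05 there were 5 of the 16, near the 22.8% of all tested genes. DESeq2 called 1 (RFC1, the large subunit of the clamp loader) and limma-voom 0, where these tools called 11.4% and 8.56% of all tested genes. EXO1, the exonuclease of the pathway, stood at 95.3 ± 8.42 and 92.8 ± 4.79 CPM (n = 3 per group, SD) with an adjusted p of 0.813, and PCNA at 290.2 ± 30.02 and 313 ± 9.33 CPM with an adjusted p of 0.380. LIG1, which seals the nick, had a log2 fold change of -0.03 (adjusted p = 0.911). PCNA passed without shControl replicate 3 (0.20, adjusted p = 0.0115), and also with both replicates 3 left out (0.22, adjusted p = 0.0189). The groups did not overlap for 5 genes of the list: RPA1 and RPA3, of the single-strand binding complex, and POLD4, of polymerase delta, lay higher in shTRIM21, and the clamp loader genes RFC1 and RFC5 lay lower. Beside 14.1% and 13.9% of all tested genes, 3 and 2 of 16 are near the background. RPA3 had a log2 fold change of 0.41 (adjusted p = 0.0872) and passed with the replicate block (0.43, adjusted p = 0.0402), with the GC and length correction (0.39, adjusted p = 0.04997), without shControl replicate 3 (0.57, adjusted p = 0.0135) and without both replicates 3 (0.52, adjusted p = 0.0358). HMGB1, a DNA-bending protein, had 0.09 (adjusted p = 0.544) and passed with that correction (0.17, adjusted p = 0.0358) and without shControl replicate 3 (0.21, adjusted p = 0.0182). RFC5 and RPA1 passed with that correction alone (adjusted p = 0.0171 and 0.0243), and POLD4 with no filter on low counts alone (adjusted p = 0.04999).

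Among 10 chromatin and other factors tied to mismatch repair, 9 were tested, 1 fell and 0 rose. Of all tested genes 4.66% fell and 4.43% rose, so 1 of 9 is near the background. At an unadjusted p under 0.05 there were 3 of the 9, beside 22.8% of all tested genes. Without overlap of the groups 1 lay higher in shTRIM21 and 3 lower, beside 14.1% and 13.9%. MCM8, a helicase subunit of recombination that works with MCM9, stood at 122 ± 6.68 CPM in shControl and fell to 100.2 ± 7.89 CPM (n = 3 per group, SD). Its log2 fold change was -0.28 (SE 0.07) and its adjusted p 0.0210 in edgeR. The MCM8 call was lost with no scaling beyond the total count and without shControl replicate 2, shTRIM21 replicate 1 or shTRIM21 replicate 3. SETD2, which writes the histone mark that the MSH6 protein reads, had a log2 fold change of -0.17 (adjusted p = 0.0975, and 0.0451 in DESeq2), and MCM9 one of 0.04 (adjusted p = 0.886). RNASEH2B, a subunit of the enzyme that nicks DNA at ribonucleotides, had a log2 fold change of -0.38 (adjusted p = 0.0744) and passed in DESeq2 (adjusted p = 0.0469) and with the GC and length correction (-0.43, adjusted p = 0.0144). FAN1 was listed at 0 in all 6 libraries, which is not read as absence. Of the 9 tested neighbours of the members, 0 passed by edgeR and 2 had an unadjusted p under 0.05. DESeq2 called 2 of the 9 neighbours, FBXO11 among them (adjusted p = 0.0464), and limma-voom called 0. Over all tested genes the shares were 9.08% by edgeR, 22.8% unadjusted, 11.4% in DESeq2 and 8.56% in limma-voom.

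By likeness of profile, the log2 CPM of each gene was centred on its own mean and compared with each member over the 6 libraries, among 10652 other genes with a mean of at least 5 CPM. The measure is the root mean square difference on the log2 scale. Nearest to PMS1 were CD99 (0.027), CCT6P3 (0.029) and INPP5A (0.029), where the median gene stood at 0.224. Among the nearest to MSH6 were HSPA8 (0.022) and H3-3A (0.025), nearest to MSH3 were PER2, ALKBH1 and HAUS5 (0.032 to 0.039), nearest to PMS2 were ZNF519, OTUD7B and MKRN2 (0.020 to 0.031), and nearest to MLH3 were CDK2AP1, TMEM59 and PLEK2 (0.020 to 0.024).

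**Figure D5:**
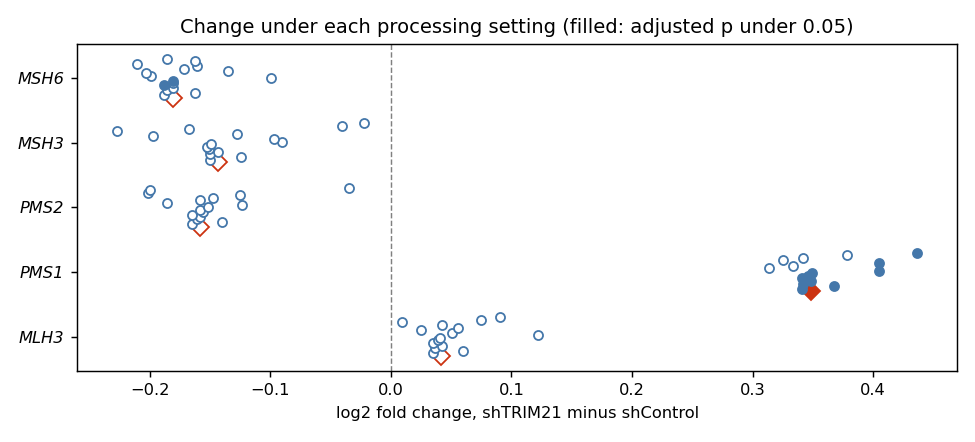
Each point is a member's log2 fold change under 1 processing setting, with the setting of the text as a red diamond and a filled symbol where the adjusted p is under 0.05. No member crosses 0 under any setting shown, and PMS1 is filled under some settings and open under others between 0.31 and 0.44.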

How the data were processed

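The authors deposited raw read counts per gene symbol for each library. The submitters' processing notes name the hg38 build and, without roles, limma 3.52.2, edgeR 3.38.1 and TopHat2 2.1.1. Not given in the sources used here are the counting tool, its annotation, the strand setting and how reads that align to several places were counted.

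Tests used edgeR 4.0.16 under R 4.3.3: its default filter on low counts, TMM scaling and the quasi-likelihood test, with no covariate, over all 14002 genes, and Benjamini-Hochberg adjustment at 0.05. An SE is the log2 fold change divided by the square root of F. The script was tested on simulated data. Count ratios had exact permutation tests. Positions and principal transcript lengths come from GENCODE 29, which gave a length for 94.2% of tested genes, and start sites and sequences from RefSeq. Between libraries with the same number, deviations from the group mean correlated at 0.241, -0.212 and 0.185 for replicates 1, 2 and 3. These values do not settle whether the replicates are paired. The fit is unpaired because the labels give no batch. With the replicate number as a block, 1699 genes changed, against 1272. The biological coefficient of variation was 10.7%.

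The members and lists were chosen with earlier results of these data known. Named genes are the members, TRIM21, list genes past the threshold, neighbours, copies and the 3 nearest profiles per member. Some genes that this rule names are not reported here. Other list genes were named after their values were seen. Alternatives covered scaling, filter, DESeq2 1.42.0, limma-voom 3.58.1, a replicate block, a GC and length offset and left-out libraries. The sums of PMS2 with its copies and of MSH6 with FBXO11 were added after seeing the data.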

Additional observations from a re-analysis of the deposited data

How the results depend on the processing

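No member changed direction under any alternative. MSH6 passed in DESeq2 (-0.19) and with the replicate block (-0.18), a block that changed no other member's call. With 1 library left out, PMS1 ran from 0.31 to 0.40 and lost its call in 5 of 6 fits, TRIM21 ran from -0.82 to -0.56, and the log2 difference in the MSH6 to MSH3 ratio ran from -0.17 to 0.0575, positive without shControl replicate 2 (0.0031), shTRIM21 replicate 1 and shTRIM21 replicate 2 (0.0177). TRIM21 was -0.45 with both replicates 3 left out. Genes changed in all numbered 602 to 1737 with 1 library left out, against 1272. With all 6 libraries and 14002 genes tested, they numbered 888 with no scaling, 1338 with upper quartile scaling and 1599 in DESeq2. They numbered 1198 in limma-voom, 1699 with the replicate block and 1845 with the GC and length offset. With no filter they were 1609 of 19002, and without replicate 3 of both groups 1459 of 14099. Calls among the excision and resynthesis genes, 0 in the text, were 1 with no filter, 1 in DESeq2, 1 with the replicate block, 4 with the GC and length offset, 2 without replicate 3 of both groups and 0 to 3 with 1 library left out. Calls among the chromatin and other factors, 1 in the text, were 0 with no scaling, 3 in DESeq2, 2 with the offset and 0 to 1 with 1 library left out. Calls among the neighbours, 0 in the text, were 1 with upper quartile scaling, 1 with no filter, 2 in DESeq2, 1 with the replicate block, 1 with the offset and 0 to 1 with 1 library left out. For the settings that kept all 6 libraries, the cause was not tested. At 217 to 308 counts MSH3 has the widest interval of the members.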

Other observations

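Genes that repair mispaired or damaged bases by other routes gave no call. Of 7, among them the glycosylases MBD4, TDG, MUTYH, OGG1, UNG and NTHL1 and the alkyltransferase MGMT, 0 passed edgeR's quasi-likelihood test, 0 had an unadjusted p under 0.05, and DESeq2 and limma-voom called 0. Their log2 fold changes ran from -0.23 to 0.27 with a median of 0.07, beside 0.01 over all genes tested. Of all tested genes edgeR called 9.08%, 22.8% had an unadjusted p under 0.05, DESeq2 called 11.4% and limma-voom 8.56%. Beside these shares, 0 of 7 is not read as a trait of the list. MGMT, which removes methyl groups from guanine and whose loss matters to cells through mismatch repair, stood at 9.32 ± 1.85 CPM in shControl and 10.2 ± 0.995 CPM in shTRIM21 (SD, n = 3 per group).

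Of the MutS relatives of meiosis, MSH4 stood at 0.870 ± 0.237 and 1.37 ± 0.521 CPM (SD, n = 3 per group) and MSH5 at 12.3 ± 2.80 and 11.1 ± 1.20 CPM. By edgeR 0 of these 2 passed, 0 had an unadjusted p under 0.05, and DESeq2 and limma-voom called 0. Over all tested genes the shares were 9.08%, 22.8%, 11.4% and 8.56% in that order, so 0 of 2 is near the background.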
